A study of Mus musculus with 45 samples.

Results

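A set of 10 ion channel genes known from work on microglia, Kcnk6, Kcnk13, Kcna3, Kcnj2, Kcnn4, Hvcn1, Trpv2, Trpm2, Clic1 and Lrrc8a, were followed through 45 mouse RNA-seq libraries and 4 inflammatory treatments. The genes were chosen by name, with earlier results of these data known, and are 10 of the 56039 genes listed in at least 1 of 3 count tables. Microglia, sorted as CD11b high CD45 intermediate cells, came either from organotypic brain slices or from the brains of adult mice, and whole brain tissue was profiled beside them. All mice were C57BL/6, with no allele or transgene named. The slices were cut from neonatal brain, kept for 2 weeks in culture and then given medium alone (9 libraries), 50 ng/mL of the cytokine TNF (11 libraries) or 20 ng/mL of the growth factor GM-CSF (9 libraries) for 24 h; each library held microglia from several pooled slices. Adult microglia came from female mice of 10 to 15 weeks, 24 h after an intraperitoneal injection of 1 mg/kg lipopolysaccharide (LPS, 4 libraries) or of PBS (4 libraries). Brain tissue came from mice of the same age given LPS (4 libraries) or left without an injection (4 libraries), so the brain comparison holds the effect of an injection together with that of LPS. By the study's methods, the libraries of the LPS experiments came from independent mice, and the slice libraries were pooled from several independent experiments, which the labels do not tie to single libraries.

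Ion channels let microglia set their membrane voltage, take up calcium and answer danger signals. Potassium leaves the cell through channels of several kinds: the tandem-pore channels THIK-1 (Kcnk13) and TWIK-2 (Kcnk6) pass potassium at rest or after ATP signals and have been linked to the NLRP3 inflammasome, Kv1.3 (Kcna3) opens with depolarization, Kir2.1 (Kcnj2) is an inward rectifier, and KCa3.1 (Kcnn4) opens with intracellular calcium. Hvcn1 encodes the Hv1 proton channel, which offsets the charge moved by NADPH oxidase during the respiratory burst. TRPV2 and TRPM2 are calcium-permeable channels, the latter gated by ADP-ribose and oxidative stress, CLIC1 is a chloride intracellular channel protein, and LRRC8A is the obligatory subunit of the volume-regulated anion channel.

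Levels are given as CPM (counts scaled to a common library total) after TMM scaling within each table, and levels of different genes are compared only as CPM per kilobase of exons. A gene is called changed where its adjusted p by edgeR's quasi-likelihood test was under 0.05, over all genes tested, and its fold change was over 1.5. Total counts ran from 5973364 to 9165485 in the slice libraries, 11391564 to 14216005 in the adult microglial ones and 8199863 to 10368578 in whole brain. In brain, the LPS libraries (at most 9452488) were all shallower than the untreated ones (at least 9641550). Summed levels of 10 microglial marker genes were at least 13371 CPM in every sorted library and 302 to 491 CPM in brain tissue, whereas 6 neuronal markers summed to at most 14.3 CPM in sorted microglia. Lymphocyte markers stayed at or under 1.54 CPM in the sum in every sorted library, and Cldn5, the endothelial tight junction gene, was at 0 in 8 of 8 adult microglial libraries. The 5 endothelial markers together, however, summed to 28.6 to 36.2 CPM after PBS and 9.72 to 12.8 after LPS in those libraries. Most of that sum was Pecam1 (28.4 to 35.9 and 9.57 to 12.4 CPM). Markers set 3 libraries apart. TNF replicate 6 of the slices had the highest summed neutrophil markers (111 CPM against a group median of 7.87), LPS replicate 2 of adult microglia kept more of the homeostatic gene P2ry12 than the other 3 (1780 CPM against 759 to 950), and LPS replicate 3 of brain tissue had the lowest microglial marker sum of its group (302 CPM against 439 to 491).

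All 10 members are protein coding (coordinates here are GRCm38, the assembly also called mm10, with GENCODE M21 exons). Kcnk6 lies on chromosome 7 at 29221926-29232515 on the minus strand and Kcnn4 on the same chromosome at 24370263-24386690 on the plus strand. Kcnk13 spans chromosome 12, 99964499-100062682, Kcna3 is a gene of 1 exon at chromosome 3, 107036169-107038070, and Kcnj2 has 2 exons at chromosome 11, 111066164-111076821. Trpv2 is also on chromosome 11 (62574486-62600515), Trpm2 on chromosome 10 (77907722-77970563, minus strand), Clic1 on chromosome 17 (35049966-35058749), Hvcn1 on chromosome 5 (122206804-122242297) and Lrrc8a on chromosome 2 (30237715-30263790). Exon sequence is shared with other genes by Lrrc8a, Hvcn1 and Trpm2. Lrrc8a shares 2944 of its 4308 exon bases with others, among them the readthrough gene Gm28035 on the same strand, and Hvcn1 shares 1574 of 3563 bases with Tctn1 on the opposite strand; for Trpm2 it is 91 bases, with 2 small genes. The strand setting of the counting is not given in the sources used here. Lrrc8a is not analysed here in brain tissue.

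Promoter windows (250 bases before to 50 after an annotated start, RefSeq on GRCm38.p6) were at hand for 8 of the 10 members. The 3 below are shown because Kcna3 rose with both TNF and LPS, Clic1 gave the only member call in brain tissue, and Trpv2 was lower in both TNF- and LPS-treated microglia; they were chosen after the values were seen. Of the 3 windows of Trpv2, the one shown was taken because it alone holds an NF-kB match, while the other two hold GAGGAA and no NF-kB match. Capitals mark matches, on either strand, to GAGGAA (the core bound by the myeloid factor PU.1), TGANTCA (AP-1) and the NF-kB consensus.
Kcna3, chr3:107035912-107036211, plus strand: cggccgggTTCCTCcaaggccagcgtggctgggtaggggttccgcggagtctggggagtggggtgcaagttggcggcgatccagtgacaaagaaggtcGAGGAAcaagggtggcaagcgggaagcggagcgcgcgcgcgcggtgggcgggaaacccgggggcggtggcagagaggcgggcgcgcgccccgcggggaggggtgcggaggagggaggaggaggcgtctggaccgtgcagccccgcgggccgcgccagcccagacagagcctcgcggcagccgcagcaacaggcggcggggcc
Clic1, chr17:35049993-35050292, plus strand: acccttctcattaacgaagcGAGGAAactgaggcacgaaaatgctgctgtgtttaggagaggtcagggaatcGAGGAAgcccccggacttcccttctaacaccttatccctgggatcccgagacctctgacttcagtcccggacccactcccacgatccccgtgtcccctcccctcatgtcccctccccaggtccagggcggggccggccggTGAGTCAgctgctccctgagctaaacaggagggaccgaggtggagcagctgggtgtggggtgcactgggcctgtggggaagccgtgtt
Trpv2, chr11:62575377-62575676, plus strand: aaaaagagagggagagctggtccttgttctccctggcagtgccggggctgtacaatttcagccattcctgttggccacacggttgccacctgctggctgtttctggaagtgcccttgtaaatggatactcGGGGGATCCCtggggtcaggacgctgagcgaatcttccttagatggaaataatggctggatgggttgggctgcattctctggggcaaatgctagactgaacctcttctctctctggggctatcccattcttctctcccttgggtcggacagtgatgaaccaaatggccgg

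Over 32851 promoter windows of the same length, 28.3% held GAGGAA, 7.8% TGANTCA and 4.5% the NF-kB consensus. GAGGAA occurred 2 times in the Kcna3 window and 2 times in that of Clic1, whose TGANTCA match (a palindrome, counted once) lay 38 to 32 bases before the start. Kcna3's window was 75.0% G and C, the highest of the members, against a median of 52.7% over all windows. Matches to TTCNNNGAA (8.3% of all windows) and GAAANNGAAA (3.4%), also searched on both strands, were found in none of the 10 windows of the members. These matches describe the letters of the window and were not tested against the values below.

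Clic1 was the most abundant of the 10 transcripts in sorted microglia, with 271 ± 21.7 CPM per kilobase (SD, n = 9) in medium slices and 194 ± 3.00 (n = 4) in PBS-injected adults, above 98.6% of the tested genes in the first case. Kcnk13 followed in medium slices at 49.8 ± 7.05 CPM per kilobase and Hvcn1 at 43.6 ± 5.52, a pair whose ranges overlapped. Kcnk6 (23.2 ± 5.59) and Trpv2 (21.4 ± 1.90) came next and also overlapped, then Kcna3 (10.5 ± 4.10), Kcnn4 (4.08 ± 1.305), Kcnj2 (2.38 ± 0.820), Lrrc8a (2.19 ± 0.357) and Trpm2 (1.02 ± 0.321), the lowest of the list. Among neighbours in this order, ranges overlapped between Trpv2 and Kcna3, between Kcnn4 and Kcnj2 and between Kcnj2 and Lrrc8a, while Kcna3 lay wholly above Kcnn4 and Lrrc8a wholly above Trpm2. Genes further apart in the order could overlap too, as Kcnj2 did with Trpm2.

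In PBS-injected adult microglia the order was different below Clic1. Kcnk6 (107 ± 7.55 CPM per kilobase, n = 4) and Hvcn1 (106 ± 2.26) shared the next place, each above 97.5% of tested genes, and were followed by Kcnk13 at 49.1 ± 2.45 and Trpv2 at 30.3 ± 0.154. Trpm2 reached 10.5 ± 0.496, above Kcnj2 (7.23 ± 1.16), Lrrc8a (4.04 ± 0.125), Kcna3 (2.17 ± 0.757) and Kcnn4 (0.911 ± 0.181). Kcna3 and Kcnn4 thus stood at the bottom of the adult list, whereas Trpm2 stood at the bottom in slices. Slices and adults were sequenced and normalized separately, and culture, age and sequencing run cannot be told apart here, so no test was made between them.

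Brain tissue gave a flatter picture. In untreated brain, Kcna3 (5.49 ± 0.430 CPM per kilobase, n = 4), Trpv2 (4.96 ± 0.428), Kcnj2 (4.83 ± 0.315) and Trpm2 (4.83 ± 0.300) lay close together and overlapped. Clic1 (3.64 ± 0.423), Kcnk13 (2.69 ± 0.420), Hvcn1 (1.22 ± 0.232) and Kcnk6 (0.931 ± 0.133) were lower, and Kcnn4 was near the limit of detection with 1 to 4 counts per library, too few for the low-count filter. In bulk tissue, fewer cells of a type and less RNA per cell cannot be told apart.

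**Figure D1:**
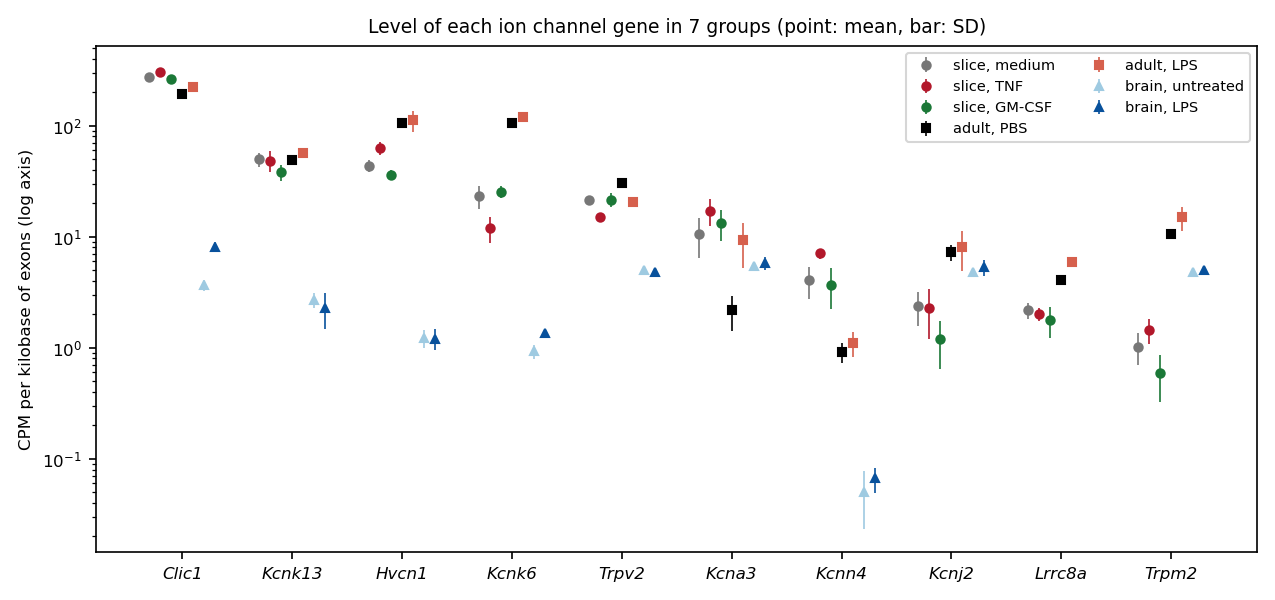
Mean CPM per kilobase of exons (log axis) of each ion channel gene in the 7 groups, with vertical lines of 1 SD; genes are ordered by their level in medium slices, and slices (circles), adult microglia (squares) and brain tissue (triangles) were normalized separately. Clic1 is highest in all 5 microglial groups. Like Kcnk6, Hvcn1 and Kcnk13, it stands far higher in sorted microglia than in brain tissue, a comparison across library kits that was not tested.

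Of the 4 treatments, TNF had the most member calls. Kcna3 and Kcnn4 rose and Kcnk6 fell, so 2 of 10 members were called higher, beside 9.10% of all genes tested, and 1 of 10 lower, beside 11.7%. At an adjusted p under 0.05 with any fold, 6 of 10 passed, beside 39.6% of all genes, which adds Hvcn1 and Clic1 on the higher side and Trpv2 on the lower. GM-CSF gave 0 higher calls by edgeR (4.84% of all genes), as it did by DESeq2 and limma and at an unadjusted p under 0.05, and 2 lower ones (5.96%), Kcnj2 and Trpm2, and 4 of 10 passed without the fold limit (25.6%). The median log2 change over the members was 0.07 with TNF and -0.20 with GM-CSF, against -0.03 and -0.04 over all genes tested.

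With LPS in adult microglia, 1 of 10 members was called, Kcna3, which rose, beside 27.4% of all genes called in either direction, while 6 of 10 passed without the fold limit (51.6%). In brain tissue, 1 of the 8 members tested was called higher (2.63% of all genes), Clic1, and 0 were called lower (0.550%). The count of lower members was also 0 by DESeq2, by limma and at an unadjusted p under 0.05, and 2 of 8 passed without the fold limit (10.2%). The counts of members are small, and whether the list stands apart from all genes was not tested. Of the 5 genes called with TNF or GM-CSF, Kcna3 was also called with LPS, in adult microglia. How many of all genes called with a cytokine were also called with LPS was not counted. The overlap of the members therefore has no share beside it. TNF and GM-CSF share their medium libraries. Scaling libraries by total counts alone changed the split of GM-CSF calls over all genes from 548 higher and 674 lower to 814 and 460, while the member calls were again 0 and 2.

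**Figure D2:**
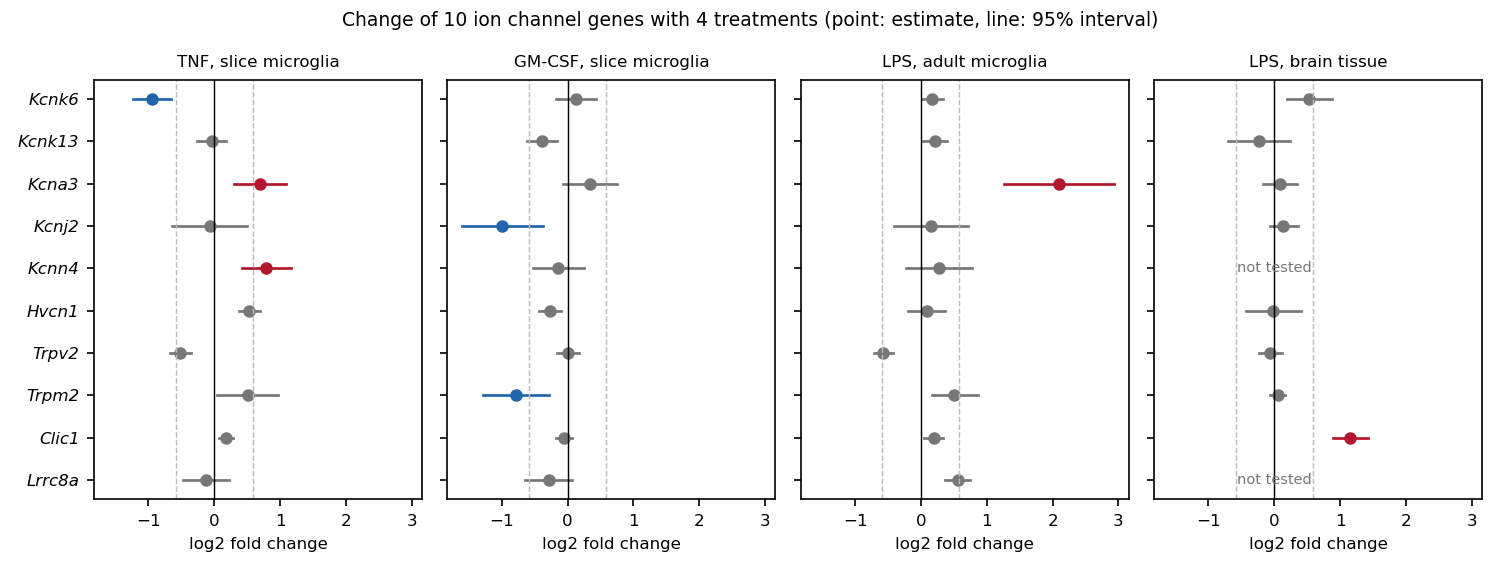
Log2 fold change of each member (points) with its 95% interval (lines) in the 4 treatments; red marks genes called higher, blue genes called lower and grey genes not called, and dashed lines stand at a fold of 1.5. Kcna3 is red in 2 panels, Kcnn4 and Kcnk6 are called with TNF alone, Kcnj2 and Trpm2 with GM-CSF alone and Clic1 in brain tissue alone.

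Kcnk6, the TWIK-2 potassium channel, was the 1 member called lower in slices treated with TNF. Its level ran from 53.1 to 133 CPM over the medium libraries (median 90.7), from 22.1 to 67.8 with TNF (median 49.8) and from 85.1 to 127 with GM-CSF (median 105). Of the 11 TNF libraries, 6 lay below every medium library, and all 11 lay below every GM-CSF library. TNF lowered Kcnk6 1.93-fold against medium (log2 -0.95, SE 0.14, 95% interval -1.24 to -0.66, adjusted p = 1.22e-06 by edgeR). It was also called within the libraries whose titles carry the codes 1A and 1B, which the labels do not explain (log2 -0.96, adjusted p = 4.54e-07) and within those coded 2A and 2B (log2 -1.06, adjusted p = 0.000153). With GM-CSF, Kcnk6 differed from medium by log2 0.12 (interval -0.18 to 0.43).

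In vivo, Kcnk6 took another course. Adult microglia gave 404, 478, 432 and 455 CPM after PBS and 514, 460, 478 and 541 after LPS, ranges that overlapped, with a log2 difference of 0.17 (SE 0.08, adjusted p = 0.0738). Brain tissue gave 3.62, 3.21, 4.24 and 4.39 CPM untreated and 6.22, 5.54, 4.96 and 5.62 after LPS, with no overlap. That difference was 1.45-fold (log2 0.53, SE 0.16, adjusted p = 0.0492), under the fold limit, and rested on 33 to 59 counts per library. Without LPS replicate 3 of brain tissue it passed the limit (log2 0.59, adjusted p = 0.0289).

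Kcnk13, which encodes the THIK-1 channel that carries the main resting potassium current of microglia, changed little. Medium slices ranged from 118 to 179.8 CPM (median 157), TNF slices from 108 to 213.5 (median 144) and GM-CSF slices from 91.6 to 147 (median 114). The difference between TNF and medium was log2 -0.04 with an interval of -0.26 to 0.18. GM-CSF slices were 1.31-fold lower (log2 -0.39, SE 0.11, adjusted p = 0.00941), short of the fold limit, with 5 of 9 libraries below every medium library. In adult microglia the 4 PBS libraries held 161, 154, 153 and 143 CPM and the 4 LPS libraries 195, 151, 183 and 176. That gave a log2 difference of 0.21 (SE 0.08, adjusted p = 0.0491), also short of the fold limit. In brain tissue, LPS gave a log2 difference of -0.23, which was not called. Kcnk13 was lowest there in LPS replicate 3 (4.35 CPM, against 6.37 to 10.3 in the other 3 and 6.73 to 9.62 untreated). That library had the least microglial marker expression (302 CPM in the sum). Untreated replicate 2, with a microglial sum of 307 CPM, held 9.62 CPM of Kcnk13. Whether the markers bear on Kcnk13 was not tested.

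Kcna3, the voltage-gated Kv1.3 channel, was the only member called in 2 treatments. In adult microglia it stood at 5.81, 4.02, 4.35 and 2.31 CPM after PBS and at 26.9, 9.42, 13.4 and 20.8 CPM after LPS. Every LPS library lay above every PBS library, and the lowest of them was replicate 2, the one that kept the most P2ry12. The rise was 4.28-fold (log2 2.10, SE 0.37, interval 1.26 to 2.93, adjusted p = 0.00123), and it was log2 2.31 without replicate 2. In slices, Kcna3 ranged from 12.6 to 37.0 CPM in medium (median 16.9), from 16.5 to 45.9 with TNF (median 32.4) and from 15.5 to 42.2 with GM-CSF (median 24.1). These groups overlapped widely, with 3 of 11 TNF libraries above the highest medium library. TNF raised Kcna3 1.62-fold (log2 0.69, SE 0.19, adjusted p = 0.00402), and the values within codes 1A and 1B (log2 0.90) and 2A and 2B (log2 0.68, adjusted p = 0.043) had the same sign. With GM-CSF the difference was log2 0.34 (interval -0.07 to 0.75, adjusted p = 0.244), and it passed both limits within codes 1A and 1B alone (log2 0.65, adjusted p = 0.0379) but not within 2A and 2B (log2 0.17, adjusted p = 0.743).

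Brain tissue showed no such rise of Kcna3. Untreated brain gave 9.55, 10.6, 11.5 and 10.1 CPM and LPS brain 10.97, 10.7, 9.43 and 13.1, which overlapped (log2 0.09, interval -0.17 to 0.34). The LPS effect on Kcna3 was larger in adult microglia than in brain tissue by log2 2.00 (SE 0.40, adjusted p = 0.000911 in a joint fit of both tables). By that test, 2 of 9 members differed with a fold over 1.5, beside 19.7% of all genes, and 3 of 9 with any fold, beside 30.8%. The injected control in one tissue and the uninjected control in the other cannot be told apart from the tissue in this comparison.

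Kcnn4, which encodes the calcium-activated channel KCa3.1, rose with TNF. Medium slices ran from 10.8 to 30.3 CPM (median 21.5), TNF slices from 28.9 to 43.0 (median 35.9) and GM-CSF slices from 11.6 to 32.5 (median 17.9). In all, 10 of the 11 TNF libraries were above every medium library, and their SD (3.81 CPM) was the smallest of the 3 groups. The rise was 1.73-fold (log2 0.79, SE 0.18, interval 0.42 to 1.16, adjusted p = 0.000554), and it was log2 0.83 within codes 1A and 1B and 0.73 within 2A and 2B. GM-CSF slices differed from medium by log2 -0.14 (interval -0.52 to 0.25). In adult microglia Kcnn4 was scarce, at 5.24, 3.66, 4.11 and 5.62 CPM after PBS and 7.001, 3.94, 4.99 and 6.55 after LPS, and the groups overlapped (log2 0.27, interval -0.23 to 0.77).

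Kcnj2, the inward rectifier Kir2.1, fell with GM-CSF. Its level was low in all slices: 5.33 to 18.9 CPM in medium (median 15.2), 6.76 to 24.5 with TNF (median 9.51) and 1.16 to 11.3 with GM-CSF (median 6.83). Of the 9 GM-CSF libraries, 2 lay below the lowest medium library, and the lowest of them held 8 counts. The fall was 1.98-fold (log2 -0.99, SE 0.30, interval -1.60 to -0.37, adjusted p = 0.0132). It was log2 -1.15 within codes 1A and 1B (adjusted p = 0.0178) and log2 -0.79 within 2A and 2B, where it was not called (adjusted p = 0.303). TNF slices differed from medium by log2 -0.07 (interval -0.64 to 0.50). In adult microglia the values were 48.2, 38.6, 33.2 and 37.4 CPM after PBS and 38.9, 30.5, 37.4 and 68.6 after LPS, with 1 high LPS library (log2 0.16, interval -0.41 to 0.72, and -0.14 without that library). Brain tissue gave 24.1 to 28.2 CPM untreated and 25.4 to 35.4 after LPS (log2 0.14, interval -0.07 to 0.36).

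**Figure D3:**
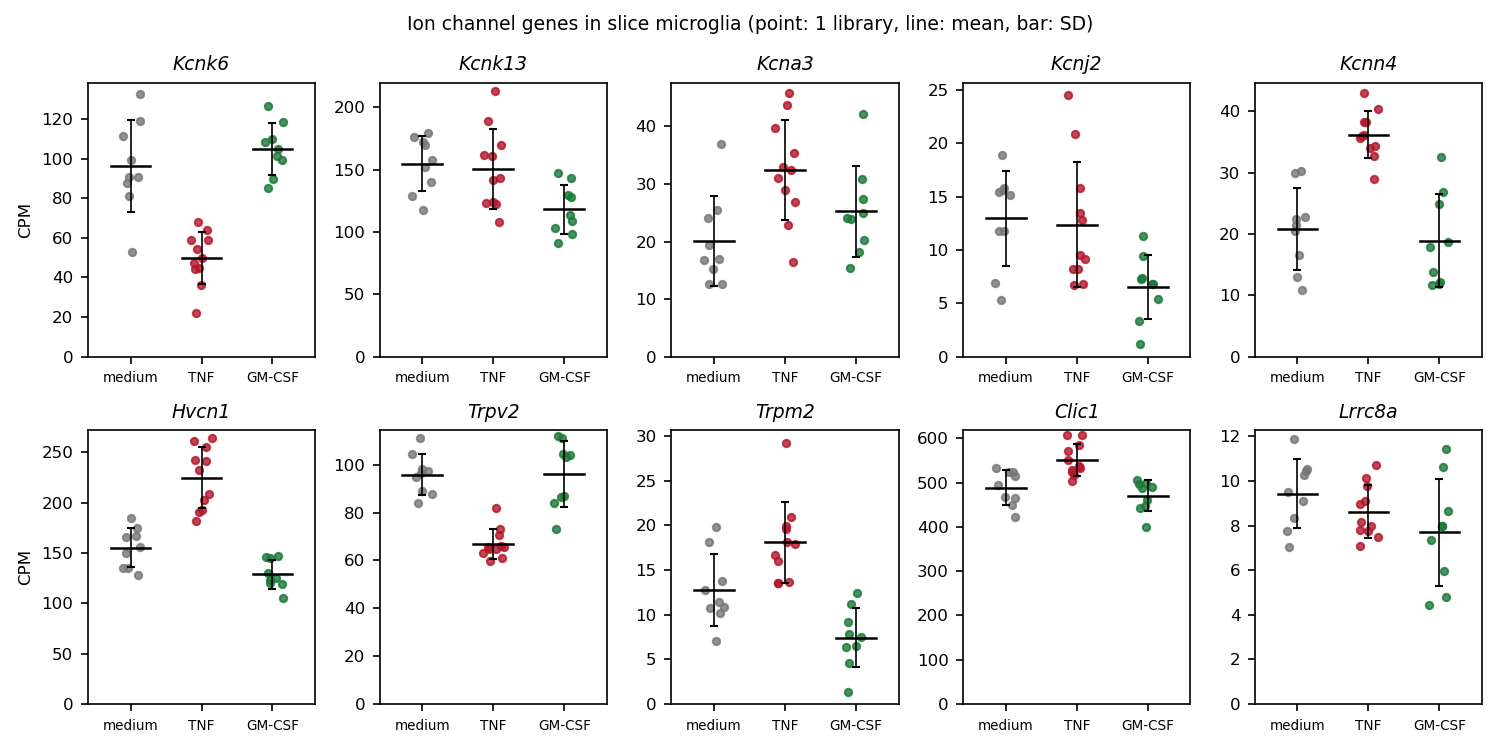
CPM of each member in the single slice libraries after medium (9 libraries, grey), TNF (11 libraries, red) or GM-CSF (9 libraries, green), with lines at the mean and bars of 1 SD. With TNF, Trpv2 lies wholly below the medium libraries and Kcnn4 and Hvcn1 lie above them but for 1 library each, while GM-CSF holds the lowest Kcnj2 and Trpm2 values.

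Hvcn1, the proton channel gene, was higher with TNF by slightly less than the fold limit. It ranged from 128 to 185 CPM in medium (median 156), from 182 to 264 with TNF (median 232) and from 105 to 147 with GM-CSF (median 125). Of 11 TNF libraries, 10 exceeded every medium library and all 11 exceeded every GM-CSF library. Against medium, TNF slices were 1.45-fold higher (log2 0.53, SE 0.08, adjusted p = 1.64e-06), and the value was log2 0.40 within codes 1A and 1B and 0.65 within 2A and 2B. GM-CSF slices differed from medium by log2 -0.27 (SE 0.09, adjusted p = 0.0173). In adult microglia Hvcn1 was tightly grouped after PBS (389, 379, 370 and 374 CPM) and spread after LPS (519, 325, 349 and 411 CPM). Of those LPS values, 2 lay above the PBS range and 2 below it, and the mean difference was log2 0.09 (interval -0.19 to 0.36). In brain tissue, Hvcn1 had 3.62 to 5.23 CPM untreated and 3.51 to 5.28 after LPS (log2 -0.02, interval -0.43 to 0.40), while the overlapping gene Tctn1 had 33.1 ± 3.81 and 29.2 ± 2.76 CPM (SD, n = 4). Reads of these 2 genes could not be separated by strand from the sources used here.

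The partners of the proton channel were followed as well, since NADPH oxidase moves the charge that Hv1 offsets, together with genes tied to the other channels. Ncf4, an oxidase regulator in the cytosol, rose 2.81-fold with TNF (log2 1.49, SE 0.06, adjusted p = 5.5e-21), from 116 ± 9.17 CPM (n = 9) to 327 ± 11.6 (n = 11). Nlrp3, the inflammasome sensor that responds to potassium loss, rose 2.72-fold (log2 1.45, adjusted p = 1.11e-13), and P2rx4, an ATP-gated cation channel, 1.61-fold (adjusted p = 4.18e-12). Cybb, the catalytic subunit of the oxidase, named after its values were seen, rose 5.03-fold with TNF (log2 2.33, SE 0.20, adjusted p = 5.28e-11) and by log2 4.76 (SE 0.63, adjusted p = 0.00061) with LPS in adult microglia. In all, 8 of 21 partner genes tested were called higher with TNF and 0 lower, beside 9.10% and 11.7% of all genes, with a median log2 change of 0.30, against -0.03 over all genes. GM-CSF called 1 of 21 higher and 0 lower (4.84% and 5.96% of all genes). Adult microglia after LPS had 5 of 21 higher and 1 lower, beside 27.4% of all genes in either direction: P2rx4 (log2 0.73) and Stim2, an endoplasmic reticulum calcium sensor (log2 0.63), were among the higher calls, and Calm2 fell by 1.21 on the log2 scale. In brain tissue 3 of 19 rose (2.63% of all genes), namely Rac2, Cyba and Ncf1 (log2 1.31, 0.84 and 1.07), which encode parts of the oxidase.

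Trpv2, a calcium-permeable channel, was lower with TNF and lower with LPS, each time just short of the fold limit. Its slice levels ran from 83.9 to 111 CPM in medium (median 96.7), from 59.7 to 81.8 with TNF (median 65.5) and from 73.0 to 112 with GM-CSF (median 103). All 11 TNF libraries lay below every medium library, a 1.43-fold difference (log2 -0.52, SE 0.08, interval -0.68 to -0.36, adjusted p = 9.15e-07). It was log2 -0.64 within codes 1A and 1B, past the limit, and -0.40 within 2A and 2B. For GM-CSF the difference was log2 0.00 (interval -0.16 to 0.17). Adult microglia held 136, 137, 136 and 135 CPM after PBS and 100.3, 88.2, 86.0 and 92.4 after LPS, again with no overlap. The difference was 1.48-fold (log2 -0.57, SE 0.07, interval -0.71 to -0.42, adjusted p = 2.5e-05), and leaving out LPS replicate 1 took it past the limit (log2 -0.62). In brain tissue Trpv2 ranged from 19.8 to 24.4 CPM untreated and from 20.0 to 22.8 after LPS (log2 -0.06, interval -0.23 to 0.12). Between adult microglia and brain tissue the LPS effect differed by log2 -0.52 (SE 0.10, adjusted p = 0.000422).

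Trpm2, the channel gated by ADP-ribose, was the lowest gene of the list per kilobase in medium slices and fell with GM-CSF. Medium slices had 7.09 to 19.8 CPM (median 11.4), TNF slices 13.5 to 29.3 (median 17.9) and GM-CSF slices 1.33 to 12.4 (median 7.49). Of 9 GM-CSF libraries, 4 lay below every medium library, and every TNF library lay above every GM-CSF library. The fall with GM-CSF was 1.72-fold (log2 -0.79, SE 0.25, interval -1.29 to -0.29, adjusted p = 0.0157). Split by title code it was log2 -0.61 (adjusted p = 0.174) and -0.94 (adjusted p = 0.119), and not called in either part. TNF gave log2 0.51 against medium (interval 0.04 to 0.97, adjusted p = 0.0801), which did not pass. After LPS, adult microglia had 200.2, 129, 181 and 238 CPM against 128.5, 128, 127 and 140.2 after PBS, a log2 difference of 0.51 (SE 0.15, adjusted p = 0.0188). Without LPS replicate 2, the library at 129 CPM, it was log2 0.66 and called (adjusted p = 2.28e-05). Brain tissue held 57.4 to 65.3 CPM untreated and 58.6 to 63.7 after LPS (log2 0.05, interval -0.07 to 0.17).

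**Figure D4:**
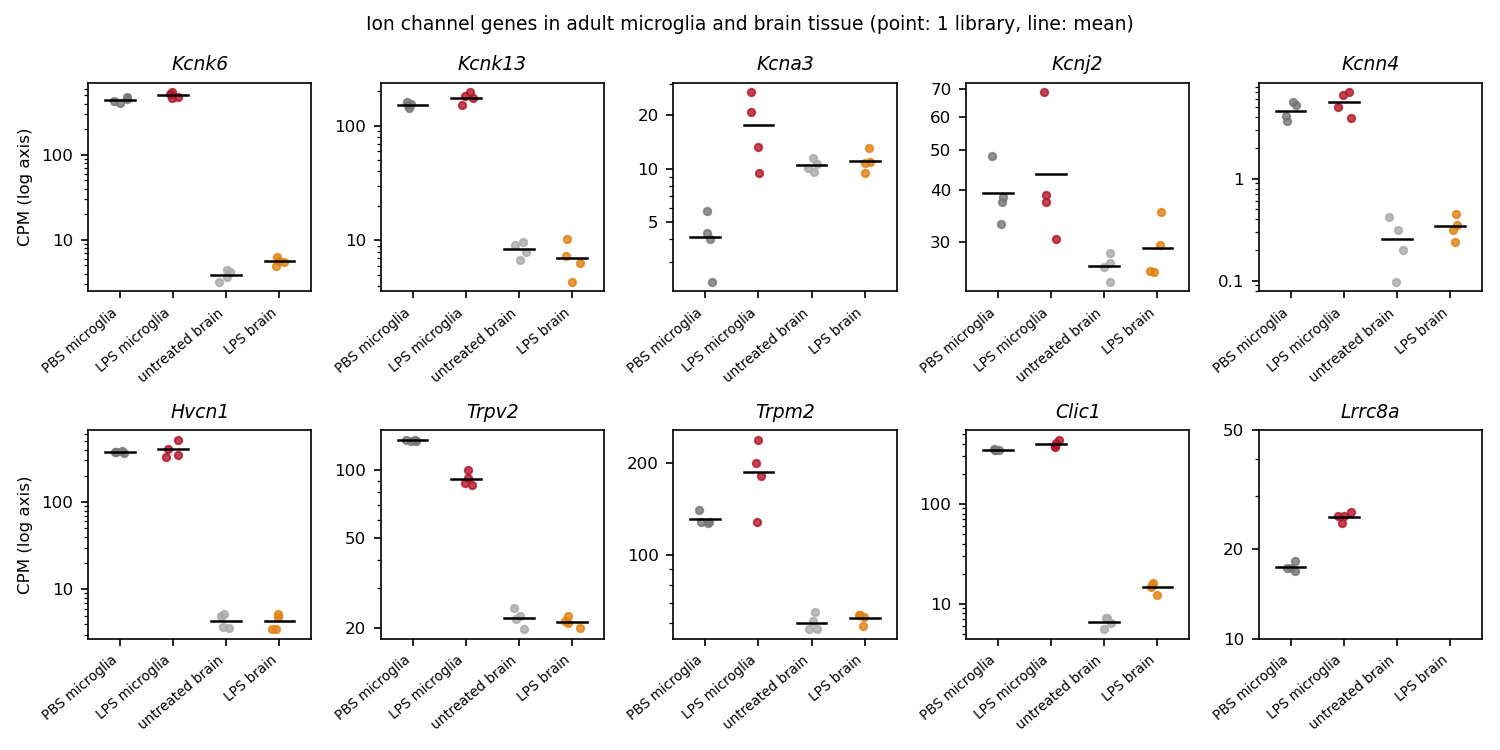
CPM (log axes) of each member in the single libraries of adult microglia (PBS grey, LPS red) and brain tissue (untreated light grey, LPS orange), 4 per group, with lines at the mean; Lrrc8a is shown for microglia alone. Kcna3 lies above all PBS values in the 4 LPS-treated microglial libraries and Clic1 above all untreated values in the 4 LPS brain libraries, and Trpv2 lies lower in all 4 LPS-treated microglial libraries.

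Clic1, the chloride intracellular channel, was the 1 member called in brain tissue. Untreated brain gave 7.14, 6.41, 7.14 and 5.54 CPM and LPS brain 14.8, 12.3, 15.96 and 15.4, without overlap. Clic1 rose 2.22-fold (log2 1.15, SE 0.13, interval 0.89 to 1.42, adjusted p = 2.38e-05) and held rank 77 by p among 15083 genes tested. In sorted adult microglia the change was far smaller, from 356, 347, 344 and 346 CPM to 440.1, 373, 405 and 379 (log2 0.20, SE 0.07, adjusted p = 0.0269), although those groups did not overlap either. The LPS effect on Clic1 was smaller in microglia than in brain tissue by log2 -0.96 (SE 0.13, adjusted p = 8.25e-06). Other marker lists moved with it in brain: 5 endothelial markers summed to 198 to 210 CPM untreated and 278 to 306 after LPS, 5 neutrophil markers to 0.583 to 0.931 and 2.90 to 6.85, and 5 border macrophage markers to 4.28 to 7.04 and 8.58 to 11.8. Mrc1, 1 of those border macrophage markers, was at 0 in every brain library. The sum of 6 astrocyte markers overlapped (4493 to 4893 CPM untreated and 4840 to 5183 after LPS). Within that list, Gfap was at 158 to 162 CPM untreated and 298 to 511 after LPS. Aqp4 went the other way, from 144 to 155 CPM untreated to 99.2 to 117 after LPS. The 6 oligodendrocyte markers summed to 5899 to 6452 CPM untreated and 4578 to 5383 after LPS, without overlap. The microglial sum overlapped (307 to 342 and 302 to 491 CPM), and Clic1 stood at 15.96 CPM in the LPS library with the lowest microglial sum, the highest of the 4. The part of these cell types in the rise of Clic1 was not tested. In slices, Clic1 ran from 421 to 533 CPM in medium, 505 to 608 with TNF and 399 to 506 with GM-CSF, with differences of log2 0.18 (adjusted p = 0.0089) and -0.06 (interval -0.17 to 0.06).

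Lrrc8a, the obligatory subunit of the volume-regulated anion channel, had 7.03 to 11.9 CPM in medium slices, 7.10 to 10.7 with TNF and 4.43 to 11.4 with GM-CSF, which overlapped (log2 -0.13, interval -0.47 to 0.22, and -0.29, interval -0.65 to 0.07). In adult microglia it stood at 17.3, 16.9, 17.3 and 18.2 CPM after PBS and 25.7, 25.8, 26.6 and 24.5 after LPS, with no overlap (log2 0.56, SE 0.09, adjusted p = 0.0002, 1.47-fold and so short of the fold limit). The readthrough gene Gm28035, which covers part of the same exons, moved the other way, from 57.3 ± 5.35 to 35.3 ± 4.26 CPM (SD, n = 4; log2 -0.70, adjusted p = 0.000133). With the counts of both genes summed, the difference changed sign to log2 -0.29 (adjusted p = 0.00678). How the authors' counting shared reads between these genes is not given in the sources used here. Phyhd1, a gene followed beside them, fell as well in adult microglia, from 365 ± 6.01 to 201 ± 28.6 CPM (log2 -0.86, adjusted p = 1.3e-05 by edgeR). Whether the counts of Gm28035 hold reads of Phyhd1 was not tested, so the sum does not settle the direction of Lrrc8a. In slices Gm28035 held 9 counts in all 29 libraries together. Of the LRRC8 partner subunits, Lrrc8c rose with both TNF (log2 0.72, SE 0.14, adjusted p = 0.000111) and GM-CSF (log2 0.92, SE 0.15, adjusted p = 1.11e-05), from 21.2 ± 4.48 CPM in medium to 34.8 ± 8.72 and 40.1 ± 8.41.

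Compared directly, TNF- and GM-CSF-treated slices differed in 5 of 10 members, beside 16.2% of all genes in either direction, and in 8 of 10 with any fold, beside 30.8%. Trpm2 was 2.45-fold higher with TNF (log2 1.29, SE 0.24, adjusted p = 4.41e-05), Kcnn4 1.91-fold (log2 0.93, adjusted p = 0.000102), Kcnj2 1.89-fold (log2 0.92, adjusted p = 0.0142) and Hvcn1 1.74-fold (log2 0.80, adjusted p = 6.01e-10). Kcnk6 was 2.10-fold lower (log2 -1.07, SE 0.14, adjusted p = 1.6e-07). Scaling by total counts alone changed the split over all genes from 933 higher and 900 lower to 694 and 1514, and Trpv2 joined the lower members (log2 -0.70). For Kcnj2 the difference was not called within codes 2A and 2B (log2 0.69, adjusted p = 0.344). Kcna3, raised by TNF against medium, did not differ between the cytokines at the threshold (log2 0.36, interval -0.03 to 0.75).

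Among 87 other ion channel genes, 40 were abundant enough to test in slices. TNF called 4 of them higher and 6 lower, beside 9.10% and 11.7% of all genes. Clic4, a relative of Clic1, rose from 281 ± 33.1 to 516 ± 45.7 CPM (log2 0.88, SE 0.07, adjusted p = 2.08e-12), the endolysosomal channel Mcoln2 by log2 1.31 and the mitochondrial porin Vdac3 by log2 0.59. The lysosomal cation channel Tpcn1 fell by 1.47 on the log2 scale, Ttyh3 by 0.69, the A-type potassium channel Kcnd1 by 1.43 and Trpv4, of the same family as Trpv2, by 0.81. Beside 4.84% and 5.96% of all genes, GM-CSF called 1 higher, Trpc4 (log2 1.09), and 4 lower: the large-conductance potassium channel Kcnma1 (log2 -2.03, SE 0.39, adjusted p = 0.000118), Ttyh2 (-0.66), Kcnd1 (-1.13) and Trpv4 (-0.78). Kcnma1 was also called lower with TNF (log2 -1.37) and with LPS in adult microglia (log2 -2.71). The median log2 change of the tested genes was -0.20 with TNF and -0.24 with GM-CSF.

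In adult microglia 42 of the 87 genes were tested, and LPS called 7 higher and 7 lower, beside 27.4% of all genes in either direction. Of 31 potassium channel genes listed outside the members, 7 passed the low-count filter, and of these 5 fell and 0 rose. A gene can pass that filter through its PBS libraries alone, and then only a fall can be called. The tally of falls and rises is therefore not set against the members. Of the 5 potassium channels among the members, Kcna3 rose and the other 4 were not called. Kcnk12, which encodes THIK-2, a relative of THIK-1, fell from 37.2 ± 2.48 to 8.73 ± 3.32 CPM (SD, n = 4; log2 -2.10, SE 0.21, adjusted p = 1.7e-05). The Kcnj2 relatives Kcnj9 (log2 -2.28, adjusted p = 2.76e-06) and Kcnj16 (log2 -2.22, adjusted p = 0.00551), fell too, from 9.67 and 1.83 CPM after PBS. The lysosomal cation channel Tpcn2 (log2 1.61), the IP3 receptor Itpr1 (1.12) and the ATP-release channel Panx1 (0.72) were the higher calls with the smallest p, and Clic4 (log2 1.37) and Trpv4 (0.75) rose as well, the latter against the direction seen in slices. Tpcn1 fell by 1.09 on the log2 scale. In brain tissue, 76 of the 87 were tested and 2 called higher, beside 2.63% of all genes, Trpv4 (log2 1.22, adjusted p = 0.00136) and Clic5 (log2 0.62, adjusted p = 0.0118).

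Markers of microglia and of other cells also moved with the microglial comparisons. The 10 microglial markers summed to 22389 to 30969 CPM in medium slices, 13371 to 17226 with TNF and 16581 to 18290 with GM-CSF, and in adults to 57496 to 63652 after PBS and 44715 to 48552 after LPS. In adult microglia the 6 neutrophil markers summed to 20.3 to 45.2 CPM after PBS and 1.61 to 5.25 after LPS, the 5 endothelial markers to 28.6 to 36.2 and 9.72 to 12.8, and the 5 border macrophage markers to 9.58 to 14.6 and 23.7 to 36.0. The 6 astrocyte markers summed to 255 to 280 CPM after PBS and 146 to 183 after LPS, the 6 oligodendrocyte markers to 75.7 to 88.8 and 59.1 to 67.7, and the 5 monocyte markers to 6.93 to 8.55 and 4.53 to 6.34. Single genes held most of some of these adult sums. Slc1a3 was at 253 to 278 CPM after PBS and 143 to 180 after LPS, in the astrocyte list. Pecam1, in the endothelial list, was at 28.4 to 35.9 and 9.57 to 12.4 CPM. Mrc1 and F13a1 held most of the border macrophage sum. In slices the border macrophage sums overlapped between medium (288 to 697 CPM), TNF (305 to 541) and GM-CSF (300.6 to 862), and the neutrophil sums were 0.134 to 13.98, 2.00 to 111 and 1.08 to 36.7 CPM. Astrocyte sums there were 66.6 to 117, 26.2 to 94.1 and 38.0 to 76.0 CPM, and oligodendrocyte sums 67.1 to 150, 51.9 to 165 and 56.2 to 125 CPM. Of the 6 astrocyte markers, 1 was called lower with TNF and 1 with GM-CSF (Slc1a3, log2 -1.35, adjusted p = 0.000277 by edgeR). The oligodendrocyte precursor gene Cspg4 was at 61.6 to 164 CPM in medium and 118 to 248 with TNF (log2 0.76, adjusted p = 0.00108), while Pdgfra, the other precursor marker, had a median of 0 in both. Without the TNF library at 111 CPM, the same count of 3 members was called, with Kcnk6 at log2 -0.96, Kcna3 at 0.76 and Kcnn4 at 0.78. The part of these markers and of the other cell types in the members' values was not tested.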

How the data were processed

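RNA was sequenced from sorted microglia (SMART-Seq v4 and Nextera XT libraries, single-end for slices and paired-end for adults) and from whole brain tissue (TruSeq mRNA libraries). The authors deposited raw counts per gene for the slices, whose processing notes list mm10, STAR 2.7.0a, featureCounts and Subread 1.6.4, and expected counts per gene for adult microglia and brain tissue, whose aligner and counter were not given in the sources used here. Expected counts were rounded to whole numbers, which moved table totals by 0.00107% and 0.00113%. Genes without a name held 0.092% and 0.1257% of the counts of the adult and brain tables.

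Each table was fitted alone in edgeR 4.0.16 (R 4.3.3): TMM factors, filterByExpr with a minimum count of 10, the robust quasi-likelihood F test (two-sided) and Benjamini-Hochberg adjustment over all genes tested. The 29 slice libraries shared 1 estimate of the spread. The difference between the LPS effects came from an interaction term in a joint fit of adult and brain libraries. Each SE and 95% interval belongs to a log2 fold change, and CPM are TMM-scaled. Replicate spread, not counting error alone, sets the errors given. DESeq2 1.42.0, limma 3.58.1 (voom), other normalizations and filters, title codes, a replicate block and leaving out replicates were alternatives. The scripts were tested on simulated data.

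The study's call limits, a fold change over 1.5 and an adjusted p under 0.05, were used. All 10 members are named. Of 87 other ion channels and 24 partner genes, the 3 called genes with the smallest p in each direction and comparison, and any of a member's family, are named, except 1 gene that is not reported here. The members and lists were chosen with earlier results of these data known. Markers of oligodendrocytes, their precursors, monocytes and lymphocytes were summed as well.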

Additional observations from a re-analysis of the deposited data

Results flagged for a closer look

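Among 58 sets of 4 to 10 libraries in which a member was measured, 2 held a library far from the others, and chance alone gives such a flag in about 5% of sets. Trpm2 in PBS replicate 4 of adult microglia was at 140.15 CPM, against 128.5 CPM for the next library, a gap of 0.892 of the group's range. Trpm2 in LPS replicate 2 of brain tissue was at 58.59 CPM, below 62.981 CPM for the next library, a gap of 0.861 of the range.

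By the interaction term of the joint edgeR fit, the LPS effect differed between adult microglia and brain tissue for 3 of 9 members. That count is at an adjusted p under 0.05 with any fold, which 30.8% of all genes tested also passed. The LPS effect was higher in microglia by log2 2.00 for Kcna3 and lower by log2 -0.52 for Trpv2 and log2 -0.96 for Clic1, with adjusted p of 0.000911, 0.000422 and 8.25e-06. Tissue, library kit and type of control differ together in this comparison and cannot be told apart.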

How the results depend on the processing

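Of 922 log2 fold changes of members recomputed under alternatives, 855 kept their direction and their side of the limits, 26 passed newly, 4 no longer passed and 37 changed sign, of which 1 passed the test under the alternative. All 68 group levels compared moved by less than 1 SD. The 1 reversed value that passed was Lrrc8a in adult microglia with the counts of Gm28035 added, chosen after seeing the data (log2 -0.29). The other reversed values ran from log2 -0.29 to 0.12 and did not pass. By title codes 1A and 1B alone they were Kcnk13 (0.01) and Lrrc8a (0.01) with TNF, and Kcnk6 (-0.01), Kcnn4 (0.08) and Trpv2 (-0.15) with GM-CSF, and by codes 2A and 2B Lrrc8a between the cytokines (-0.07). With total counts they were Clic1 with GM-CSF (0.05), Hvcn1 in brain (0.00), Lrrc8a between the cytokines (-0.01) and Kcnj2 in the difference of LPS effects (-0.01). A minimum count of 50 and limma-voom turned Trpv2 with GM-CSF (-0.00 and -0.01), and DESeq2 size factors, its Wald test and limma-voom turned Kcnj2 in the difference of LPS effects (-0.03 each).

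Leaving out 1 replicate changed the sign of 3 members within a tissue and of 3 in the difference of LPS effects. In adult microglia Hvcn1 ran from -0.07 to 0.18 and Kcnj2 from -0.14 to 0.30, in brain Hvcn1 from -0.13 to 0.08 and Kcna3 from -0.01 to 0.15, and in the difference Kcnj2 from -0.29 to 0.14, Hvcn1 from -0.06 to 0.21 and Kcnn4 from -0.47 to 0.12.

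Counts of calls moved most without the fold limit: 4476, 2892, 6703 and 1533 genes and 6, 4, 6 and 2 members for TNF, GM-CSF and LPS in microglia and in brain, 3486 genes and 8 members between the cytokines, and 5136 genes for the difference of LPS effects. Codes 2A and 2B alone gave 785 genes and 0 members with GM-CSF. The member count in adult microglia was 2 with no low-count filter and 1 to 2 when 1 replicate was left out (2 without LPS replicate 1, with Trpv2, or replicate 2, with Trpm2), and 1 to 2 in brain, with Kcnk6 added without LPS replicate 3. A minimum count of 50 left 288 brain genes called, with fewer genes tested. Total counts shifted the median of all genes between TNF and GM-CSF to log2 -0.19 from -0.02. Causes beyond these were not tested.

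Replicate numbers did not pair the samples: same-numbered libraries had correlations of their deviations of -0.04 to 0.18 for slices, -0.03 to 0.02 for sorted adult cells and -0.08 to 0.04 for brain. With a replicate block the counts of genes called were 2423, 1258, 3452, 448, 1828 and 3222 for TNF, GM-CSF, LPS in microglia, LPS in brain, TNF against GM-CSF and the difference of LPS effects, the counts of members called were 3, 2, 1, 1, 5 and 2, as without it, and Kcnk13 with TNF (0.03), Trpv2 with GM-CSF (-0.00) and Kcnj2 in the difference (-0.04) changed sign. Kcnn4 in brain and low slice levels of Kcnj2, Trpm2 and Lrrc8a are limited by depth.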
